A study of Mus musculus with 16 samples.

Results

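The 10 genes described here encode RNA-binding proteins that regulate splicing in neurons: Rbfox1, Rbfox2, Rbfox3, Nova1, Nova2, Ptbp1, Ptbp2, Srrm4, Elavl3 and Elavl4. A gene was taken as all transcripts of the merged CaptureSeq assembly whose largest same-strand exonic overlap with GENCODE M21 genes was with that symbol. The 10 members drew 64 of the 137,561 transcripts outside the ERCC spike-ins. Those with such an overlap were assigned to 40,399 genes in all. RNA from adult C57BL/6J mice, with no allele or treatment named, was captured with a lncRNA design and again with a splice junction design. Brain was sampled as whole brain and as cerebellum, cortex and olfactory bulb. The nonbrain side comprised heart, kidney and liver, with a tissue labelled testis as the last. Each of the 8 tissues had 1 library per design, 16 libraries in all. The tissue was therefore the unit of each comparison (n = 4 brain and 4 nonbrain tissues), and cerebellum, cortex and olfactory bulb are also parts of the whole brain. The number of mice was not given, and each nonbrain RNA was pooled from pieces of an organ of the same mouse.

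Alternative splicing joins different exons of a pre-mRNA, and the choice is steered by proteins that bind short motifs in exons and in the introns beside them. Rbfox proteins bind UGCAUG and Nova proteins bind clusters of YCAY, and both repress or promote an exon according to where they bind. Ptbp1 represses many neuronal exons in non-neuronal cells, Ptbp2 takes its place as neurons differentiate, Srrm4 promotes the inclusion of neuronal microexons, and the Elavl proteins bind U-rich and AU-rich sequences. In the brain these regulators give neurons a splicing programme of their own, and Rbfox1 and Rbfox2 are known to act in heart and skeletal muscle too.

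The libraries held 8,930,235 (heart, lncRNA design) to 43,889,299 (liver, splice junction design) fragments, of which 7.81% to 45.6% lay on ERCC spike-ins. The deposited values were fragments multiplied by 1 factor per library, so that a single fragment was worth 4.77 in the heart lncRNA library and 1.14 to 2.57 in the other lncRNA libraries. Brain and nonbrain RNA were extracted with different kits and hybridized in separate pools with different numbers of PCR cycles, and these steps cannot be told apart from the tissue group. Markers did not bear out the testis label: the germ cell markers Tnp1 and Acrv1 were at 0 in both designs and Prm1 had at most 9 fragments, whereas the keratin gene Krt14 had 3939 fragments (lncRNA design) and 96,634 fragments (splice junction design). Listed zeros can be failed estimates, since the heart myosin gene Myh6 was at 0 in the heart splice junction library and had 67,154 fragments in the heart lncRNA library.

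Most of the members were higher in brain than in nonbrain tissues, and Ptbp1 was lower. In the mean of both designs, 7 of the 9 members tested rose in brain and 1 fell, where 21.8% of the 19,352 genes tested rose and 12.2% fell (limma on log2(value + 1), adjusted p under 0.05 over all genes). Nova2 stayed under the minimum mean value of 10 and was not tested. The median log2 fold change of the 9 members was 4.81, beside 0.17 over all genes. In the lncRNA design alone, 6 members rose and 1 fell (16.6% and 6.51% of all genes, 23.1% together). In the splice junction design alone 7 rose and 1 fell (19.8% and 14.3%, and 34.1% together, the share of the mean of both designs too). Without the tissue labelled testis, 6 members rose and 1 fell in the mean of both designs, 5 rose and 0 fell in the lncRNA design (where 8 had an unadjusted p under 0.05 in limma), and 6 rose and 1 fell in the splice junction design. Over all genes tested, 4140 then rose and 2418 fell in the mean of both designs, 3051 and 1272 for lncRNA capture, and 3665 and 2814 for splice junction capture. In these bulk RNAs, fewer cells that express a gene and less RNA per cell cannot be told apart.

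**Figure D1:**
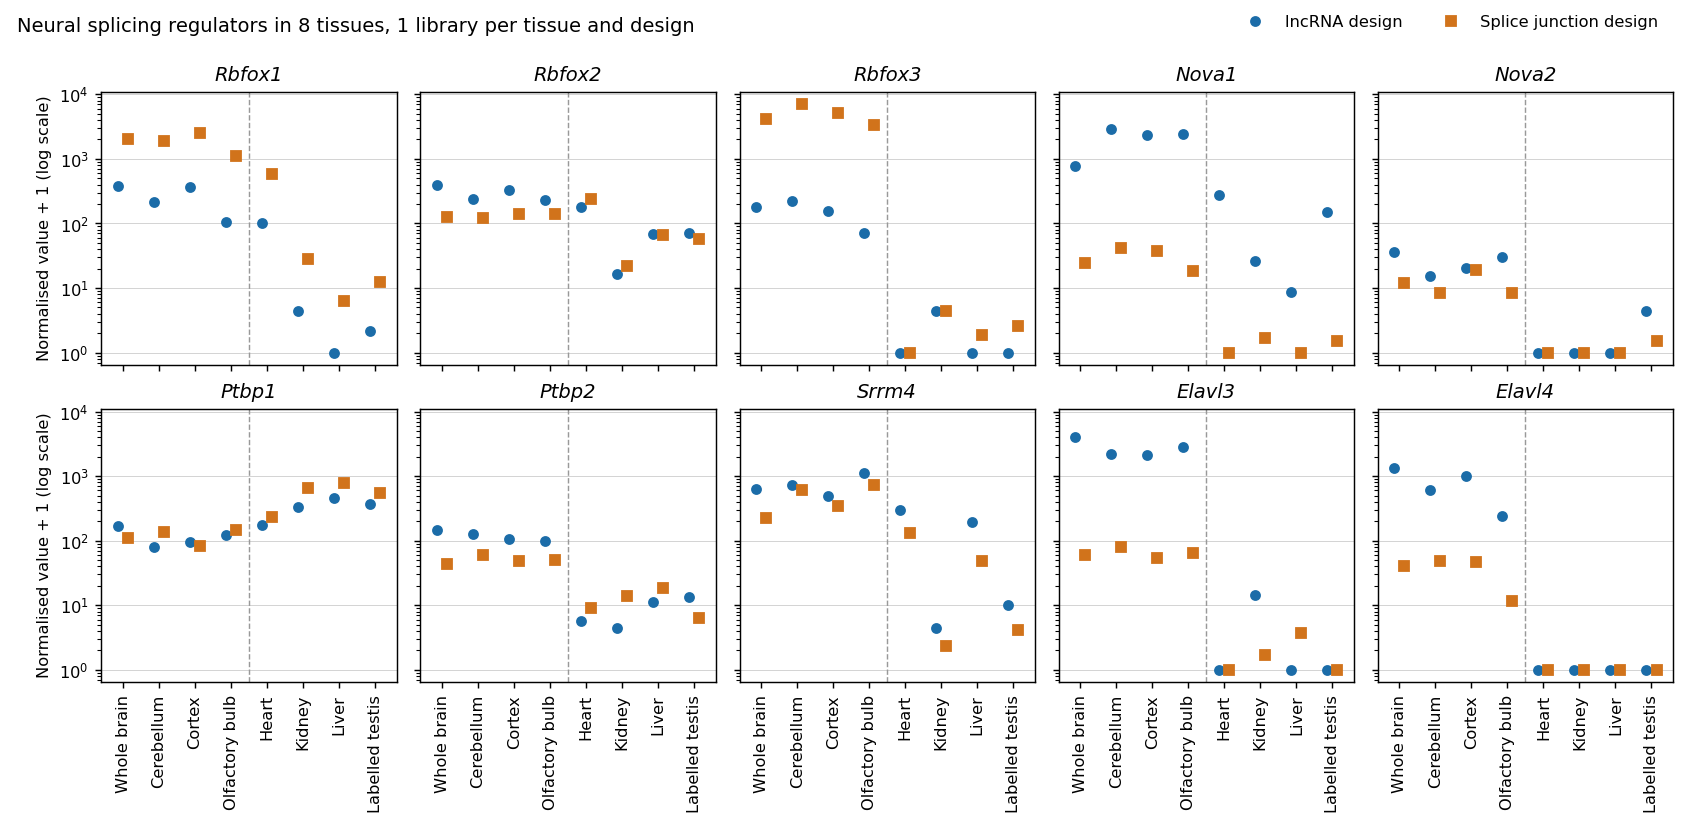
Normalised value + 1 (vertical log axis) of each of the 10 genes in the 4 brain tissues (left) and the 4 nonbrain tissues (right), in the lncRNA design (circles) and the splice junction design (squares); each point is 1 library and the dashed line parts brain from nonbrain tissues. Rbfox1 in heart stands at 100.2 and 581, far above kidney, liver and the tissue labelled testis. With this scaling, Ptbp1 is the only gene whose brain values all lie below its nonbrain values.

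In the plot of values by tissue, every brain tissue stood above every nonbrain tissue for 9 of the 10 members in the lncRNA design, a pattern shown by 18.6% of all genes tested. In the splice junction design this held for 8 members (20.1% of all genes), since Rbfox2 in heart exceeded the brain tissues. Every brain value of Ptbp1 lay below every nonbrain value in both designs, as for 9.01% (lncRNA design) and 17.2% (splice junction design) of all genes. This held with the deposited scaling. Per kb of transcript and per library size outside the spike-ins, heart lay within the brain range of Ptbp1 in both designs.

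Rbfox1 (chr16:5885355-7411526, plus strand), which binds UGCAUG beside alternative exons of neurons and muscle, was high in brain and, in both designs, present in heart. Rbfox1 had lncRNA design values, normalised by library, of 374 in whole brain, 217 in cerebellum, 370.5 in cortex and 105 in olfactory bulb, against 100.2 in heart, 3.38 in kidney, 0 in liver and 1.14 in the tissue labelled testis. Its splice junction design values were 2026, 1906, 2493 and 1095 in the same brain tissues, against 581 in heart, 27.4 in kidney, 5.22 in liver and 11.2 in the tissue labelled testis. Olfactory bulb was the lowest brain tissue and stood close to heart in the lncRNA design, while the other nonbrain tissues lay far below both. Rbfox1 rose in brain by 5.59 ± 1.25 on the log2 scale in the mean of both designs (SE, adjusted p = 0.0093). In the lncRNA design alone the change was 5.42 (adjusted p = 0.0239), a call that leaving out any one tissue other than heart or olfactory bulb ended (adjusted p = 0.057 to 0.0728).

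The heart values of Rbfox1 rested on 21 fragments (lncRNA design) and 362 fragments (splice junction design). The heart value was 29.6 times that of the highest other nonbrain tissue in the lncRNA design (21.2 times for splice junctions), and it came to 37.6% and 30.9% of the brain mean. Per kb of transcript and per library size outside the spike-ins (FPKM), heart stood at 0.796 against a brain mean of 4.00 in the lncRNA design, and at 15.1 against 156 in the splice junction design. On that scale olfactory bulb had 1.46 in the lncRNA design, so it was less close to heart than by the deposited values. Heart is 1 RNA, so its difference from the other nonbrain tissues has no replicate check.

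Markers of neurons were nearly absent from the same heart libraries. The measured neuron markers Syt1, Snap25, Syp and Stmn2 together had 3 fragments in the heart lncRNA library and 2 in the heart splice junction library, against 5886 to 14,893 and 2308 to 4649 in the brain libraries. Of the autonomic neuron markers, Dbh, which makes noradrenaline, had 89 fragments in the heart splice junction library, while Th was at 0 and Prph had 3, and the part of autonomic neurons in the heart values was not tested. The heart muscle genes Tnnt2, Actn2 and Ryr2 reached 0.82% to 1.49% of their heart fragments in the other nonbrain splice junction libraries. Of its heart fragments, Rbfox1 reached 11.3% in kidney, 1.66% in liver and 5.80% in the tissue labelled testis. These percentages are not scaled to library depth, which was lowest in heart (14,309,221 fragments, against 30,864,579 in kidney and 43,889,299 in liver).

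Rbfox2 (chr15:77078990-77307004, minus strand), the more widely expressed paralogue that binds the same motif, was the only member whose brain and nonbrain values overlapped, which they did in the splice junction design. Rbfox2 had lncRNA design values of 387 in whole brain, 235 in cerebellum, 326 in cortex and 234 in olfactory bulb, against 181 in heart, 15.2 in kidney, 66.9 in liver and 70.7 in the tissue labelled testis. Rbfox2 had splice junction design values of 127, 121, 139 and 138 in the brain tissues, against 237 in heart, 20.7 in kidney, 66.1 in liver and 57.0 in the tissue labelled testis. Heart was the highest of all 8 tissues in the splice junction design and kidney the lowest with both designs. Rbfox2 differed between brain and nonbrain tissues by 1.61 ± 0.64 on the log2 scale (SE), which did not pass the test (adjusted p = 0.0836). It passed after scaling to the library size outside the spike-ins (2.13, adjusted p = 0.0257) and after leaving out heart (2.17, adjusted p = 0.0119). On the FPKM scale, heart had 1.80 in the splice junction design, within the brain range of 1.76 to 2.21.

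Rbfox3 (chr11:118489762-118911597, minus strand), whose protein is the neuronal nuclear antigen NeuN, was at or near 0 outside brain tissues. Rbfox3 had splice junction design values of 4226 in whole brain, 7105 in cerebellum, 5130.2 in cortex and 3304 in olfactory bulb, against 0 in heart, 3.34 in kidney, 0.87 in liver and 1.60 in the tissue labelled testis. Rbfox3 had lncRNA design values of 178, 224, 154 and 70.5 in the brain tissues, against 3.38 in kidney and 0 in heart, liver and the tissue labelled testis. Cerebellum was the highest tissue and olfactory bulb the lowest brain tissue in both designs. The rise in brain was 8.88 ± 0.54 on the log2(value + 1) scale (SE, adjusted p = 1.05e-05). With values near 0 outside brain, its size depends on the pseudocount, and it was 6.28 with a pseudocount of 10.

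The exons of 40 nt and 43 nt near the 3' end of Rbfox1 and Rbfox2 are the alternative exons known as the brain and the muscle exon, and they are shown for that reason. Each follows below, 5′ to 3′ on the transcribed strand, from GENCODE M21 (GRCm38), with capitals where the paralogues differ. They lie at chr16:7363865-7363904 and chr16:7369801-7369843 in Rbfox1, and at chr15:77094451-77094490 and chr15:77091812-77091854 in Rbfox2.
Rbfox1, 40 nt: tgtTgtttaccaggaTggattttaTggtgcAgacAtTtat
Rbfox2, 40 nt: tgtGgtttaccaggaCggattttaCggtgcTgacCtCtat
Rbfox1, 43 nt: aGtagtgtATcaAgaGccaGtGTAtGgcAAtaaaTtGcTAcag
Rbfox2, 43 nt: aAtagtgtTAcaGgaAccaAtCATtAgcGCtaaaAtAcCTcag
The 40 nt exons were identical at 34 positions (85%) and the 43 nt exons at 27 positions (62.8%). Both lengths leave 1 nt over after division by 3, so inclusion of one exon in place of the other keeps the frame that either sets, while skipping both does not.

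In the assembled Rbfox1 transcripts, the 43 nt exon was carried by a single model, and the other 4 models that span the region held the 40 nt exon. The 43 nt exon took a share per kb of transcript of 0.17% in whole brain, 0.095% in cerebellum, 0.10% in cortex and 2.72% in olfactory bulb, against 25.9% in heart, 5.48% in kidney and 14.4% in the tissue labelled testis, with the fragments of both designs summed. The kidney and testis-labelled shares rested on 42 and 21 fragments, the heart share on 383. In heart the share was 83.3% in the lncRNA design (21 fragments) and 24.4% in the splice junction design (362 fragments), so the designs gave the same direction and different sizes. The sizes also depend on the division by transcript length: as plain fragments, an alternative added after the data were seen, the summed shares were 54.8% in heart, 16.2% in kidney and 35.3% in the tissue labelled testis, against 0.30% to 8.38% in brain tissues, and the splice junction share in heart was 53.1%. The difference of 14.5 percentage points between 4 brain and 3 nonbrain tissues had an unadjusted p of 0.0286 (exact permutation test, two-sided), the smallest that 35 assignments allow. Without the tissue labelled testis, too few nonbrain tissues remained for a test.

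**Figure D2:**
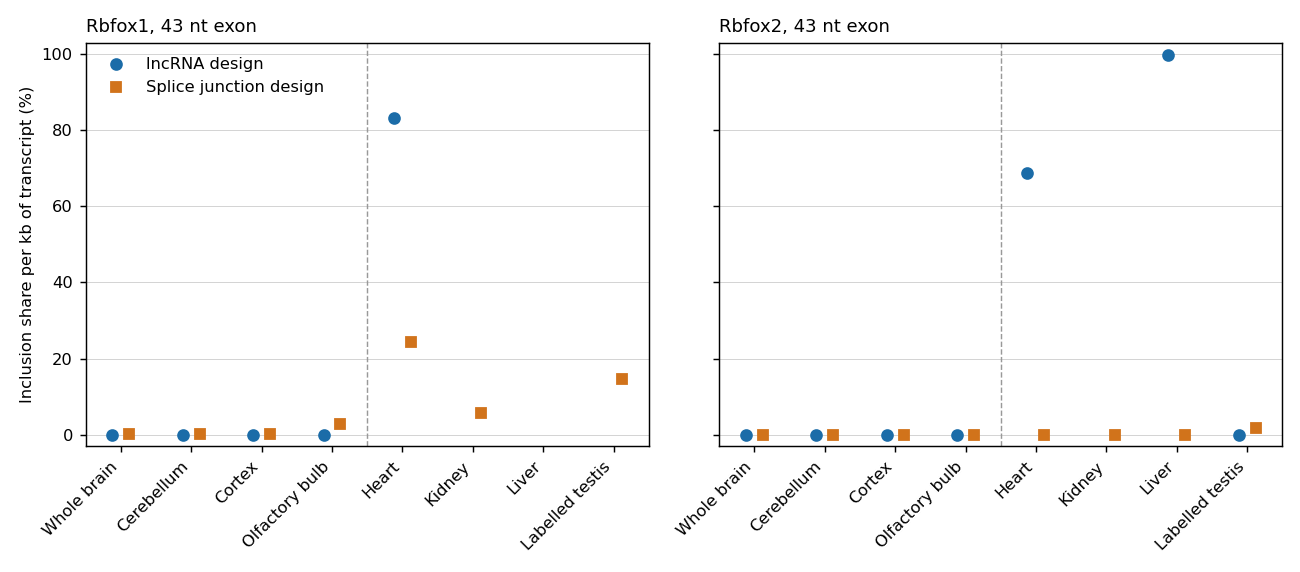
Inclusion share per kb of transcript of the 43 nt exon (vertical axis, %) of Rbfox1 (left) and Rbfox2 (right) in each tissue, in the lncRNA design (circles) and the splice junction design (squares), for libraries with at least 10 fragments. The heart share of Rbfox1 is 83.3% and 24.4% in the 2 designs against at most 2.75% in the brain libraries, and that of Rbfox2 is 68.7% (lncRNA design) and 0 (splice junction design).

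Rbfox2 gave no such pattern across both designs. Its 43 nt exon was included at 68.7% in heart (38 fragments) and 99.9% in liver (26 fragments) in the lncRNA design, and at 0 in both tissues in the splice junction design (148 and 76 fragments). Brain shares of that exon were at or below 0.0034% in both designs. The 40 nt exon of Rbfox2 had shares of 96.3% in whole brain, 41.7% in cerebellum, 66.9% in cortex and 56.0% in olfactory bulb, against 6.28% in heart, 59.0% in kidney, 0.025% in liver and 0.061% in the tissue labelled testis. Kidney stood within the brain range and the groups overlapped (two-sided exact permutation test, p = 0.0857, unadjusted). These shares are estimates, made by dividing fragments among isoforms, and carry no counting interval.

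The assembled Rbfox1 transcripts started at 5 sites spread over more than a megabase, and heart used one of them far more than brain did. In the splice junction design, the start at 7069835 took 53.1% of the Rbfox1 fragments in heart, against 0.52% in whole brain, 0.55% in cerebellum, 0.32% in cortex and 7.21% in olfactory bulb. It lies 11 nt from a GENCODE M21 start and took 16.6% of 41 fragments in kidney, 72.4% of 6 in liver and 35.3% of 21 in the tissue labelled testis. The same start took, in the lncRNA design, all 21 heart fragments and at most 9.54% of the fragments in any brain library. The 43 nt exon lies on one of the models from this start, so start and exon are not independent observations. The start at 7040937, which is 28,909 nt from the nearest GENCODE M21 start, took 67.4%, 59.6%, 65.5% and 58.2% in the brain tissues and 40.4% in heart in the splice junction design. In the lncRNA design, the start at 7193811 led in brain, at 65.9% to 89.1%, so the order of the brain starts differed between designs.

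**Figure D3:**
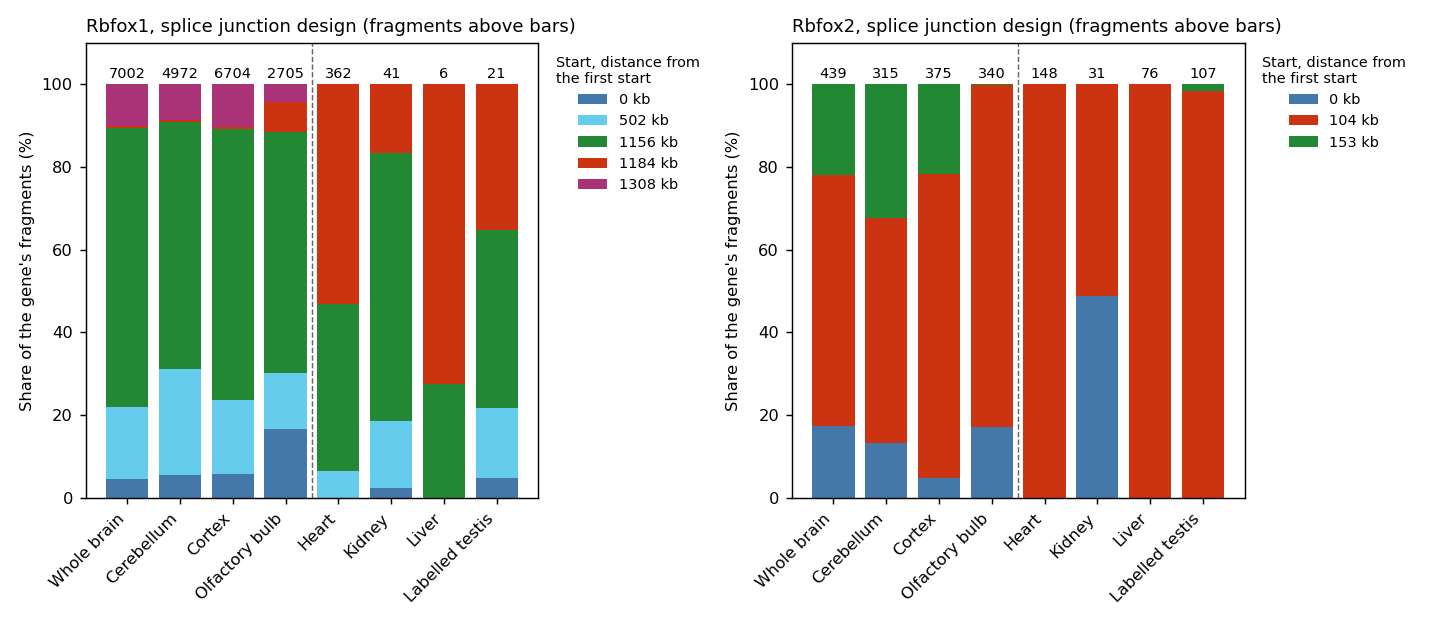
Share of the fragments of Rbfox1 (left) and Rbfox2 (right) on transcripts from each start (stacked bars, %) by tissue in the splice junction design; starts are named by their distance in kb from the first start in the direction of transcription, and the number above each bar is the fragments of the gene. For Rbfox1, the start at 1184 kb takes 53.1% in heart and at most 7.21% in the brain tissues.

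The RefSeq promoter (GRCm38.p6) at the Rbfox1 start that led in heart, chr16:7069585-7069884 on the plus strand, reaches from 250 nt before to 50 nt after 7069835, and is shown with its E-boxes (CANNTG, a palindrome and so the same on both strands) in capitals.
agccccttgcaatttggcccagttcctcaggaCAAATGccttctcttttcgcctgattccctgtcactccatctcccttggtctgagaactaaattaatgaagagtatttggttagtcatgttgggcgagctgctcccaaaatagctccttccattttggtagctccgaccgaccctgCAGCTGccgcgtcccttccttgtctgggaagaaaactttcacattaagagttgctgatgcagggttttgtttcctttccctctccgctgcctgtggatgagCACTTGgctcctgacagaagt
The window was 50% G and C with 7 CpG and 3 E-boxes. Among 32,851 promoters of that length, 72.3% held an E-box and 13.6% held TATAAA, the TATA box, on either strand, which was not in the window.

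For Rbfox2, the starts near 77203531, 77307053 and 77153812 shared the fragments. The starts near 77203531 took 60.7% in whole brain, 54.6% in cerebellum, 73.4% in cortex and 82.6% in olfactory bulb in the splice junction design, against 100% in heart and liver, 51.2% in kidney and 98.3% in the tissue labelled testis. In the lncRNA design, the start at 77153812 took 100% of the 38 heart fragments and 99.97% of the 26 liver fragments. The designs thus disagreed on the Rbfox2 start of heart (38 and 148 fragments) and liver (26 and 76 fragments).

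Nova1 (chr12:46694517-46818929, minus strand) and Nova2 (chr7:18925888-18965319, plus strand) encode the neuronal proteins that bind YCAY clusters. Nova1 rose in brain by 4.81 ± 0.62 on the log2 scale (SE, adjusted p = 5.25e-04), but its lncRNA design values came nearly all from its 3' end. Nova1 had lncRNA design values of 763 in whole brain, 2917 in cerebellum, 2362 in cortex and 2461 in olfactory bulb, against 272 in heart, 25.3 in kidney, 7.72 in liver and 149 in the tissue labelled testis. An unspliced model of 9907 nt, which also overlaps the lncRNA gene Gm33869, held 98.3% to 99.8% of the brain fragments and 100% of the nonbrain fragments there. Nova1 had splice junction design values of 23.4, 40.6, 36.1 and 17.4 in the brain tissues, against 0.668 in kidney, 0.533 in the tissue labelled testis and 0 in heart and liver. The same model took 6.07% to 28.3% of the brain fragments in that design. Without it, Nova1 stayed under the minimum mean value and was not tested (an alternative added after the data were seen).

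Nova2 was low everywhere. Nova2 had lncRNA design values of 35.2 in whole brain, 14.4 in cerebellum, 19.6 in cortex and 29.0 in olfactory bulb, against 3.42 in the tissue labelled testis and 0 in heart, kidney and liver. Nova2 had splice junction design values of 11.0, 7.28, 18.2 and 7.29 in the brain tissues, against 0.533 in the tissue labelled testis and 0 in the other nonbrain tissues. With no filter on low values, Nova2 rose in brain by 3.70 (adjusted p = 7.32e-04).

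Nova1 has a coding exon of 72 nt, chr12:46713498-46713569 on the minus strand, shown because it can be skipped and holds the motif of the Nova proteins. The motif YCAY (Y is C or T), read on the transcribed strand, is in capitals.
Nova1, 72 nt: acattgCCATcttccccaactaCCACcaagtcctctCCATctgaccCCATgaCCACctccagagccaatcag
It held 5 such motifs, and 0.90% of 1334 GENCODE exons of the same length held at least as many (median 1). Since the motif was a reason to show this exon, that percentage is a description and no test. Its inclusion share was 64.5% in cerebellum and 100% in whole brain, cortex and olfactory bulb, on 36.7 to 96.9 fragments of spliced transcripts. Cerebellum stood alone, and no nonbrain tissue had 10 fragments.

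Ptbp1 (chr10:79854427-79864771, plus strand), the polypyrimidine tract binding protein of non-neuronal cells, was the only member that fell in brain. Ptbp1 had lncRNA design values of 168 in whole brain, 80.1 in cerebellum, 95.4 in cortex and 122 in olfactory bulb, against 172 in heart, 336 in kidney, 461 in liver and 364 in the tissue labelled testis. Ptbp1 had splice junction design values of 109, 135, 81.4 and 148 in the brain tissues, against 231 in heart, 652 in kidney, 782 in liver and 542 in the tissue labelled testis. Heart was the lowest nonbrain tissue in both designs and, in the lncRNA design, differed little from whole brain. On the FPKM scale, heart had 1.61 in the lncRNA design, within the brain range of 1.08 to 2.00. In the splice junction design heart had 5.47, within the brain range of 4.03 to 7.34. Ptbp1 fell by 1.80 on the log2 scale in brain (SE 0.40, adjusted p = 0.0086). The lncRNA design alone gave -1.48 (adjusted p = 0.0333), a call that leaving out any one tissue other than whole brain or heart ended (adjusted p = 0.0673 to 0.0931). Scaled to the library size outside the spike-ins, the log2 fold change was -1.27 and did not pass (adjusted p = 0.0562), where the median of all genes was 0.63 against 0.17 with the deposited scaling.

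Ptbp2 (chr3:119718742-119784466, minus strand), the neuronal paralogue, rose in brain. Ptbp2 had lncRNA design values of 147 in whole brain, 126 in cerebellum, 105 in cortex and 98.1 in olfactory bulb, against 4.77 in heart, 3.38 in kidney, 10.3 in liver and 12.5 in the tissue labelled testis. Ptbp2 had splice junction design values of 42.8, 59.0, 48.3 and 49.0 in the brain tissues, against 8.02 in heart, 12.7 in kidney, 17.4 in liver and 5.33 in the tissue labelled testis. The 4 brain tissues lay close together in both designs. The rise was 3.06 ± 0.38 on the log2 scale (SE, adjusted p = 4.22e-04).

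The ratio of Ptbp1 to Ptbp2 within a library does not depend on how libraries are scaled. The lncRNA design gave a log2 ratio per kb of transcript of 0.16 in whole brain, -0.68 in cerebellum, -0.19 in cortex and 0.27 in olfactory bulb, against 5.13 in heart, 6.95 in kidney, 5.76 in liver and 4.84 in the tissue labelled testis. The splice junction design gave 1.89, 1.73, 1.54 and 2.27 in the brain tissues, against 5.55 in heart, 6.55 in kidney, 6.42 in liver and 7.49 in the tissue labelled testis. The brain and nonbrain ratios did not overlap in either design. Brain averaged -0.11 ± 0.43 and nonbrain 5.67 ± 0.93 in the lncRNA design (SD, n = 4 each), a difference of -5.78. In the splice junction design, brain averaged 1.86 ± 0.31 and nonbrain 6.50 ± 0.79, a difference of -4.64. Each difference had p = 0.0286 (two-sided exact permutation test), the smallest that 70 assignments allow, and 0.0286 after adjustment over both designs. Without the tissue labelled testis the differences were -6.06 and -4.31. From the transcripts annotated at the time of the assembly alone (those that stand in for GENCODE M4, or M4-era), they were -8.94 and -7.59 and the groups overlapped (exact permutation p = 0.0857 each). Ptbp2 then rested on 1 transcript, which in some libraries held almost no fragments, so those ratios divide by values near 0. In the splice junction design, transcripts outside that annotation held 99.3% of the Ptbp2 fragments in cortex and 99.99% in kidney. In cerebellum they held 0.016%.

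**Figure D4:**
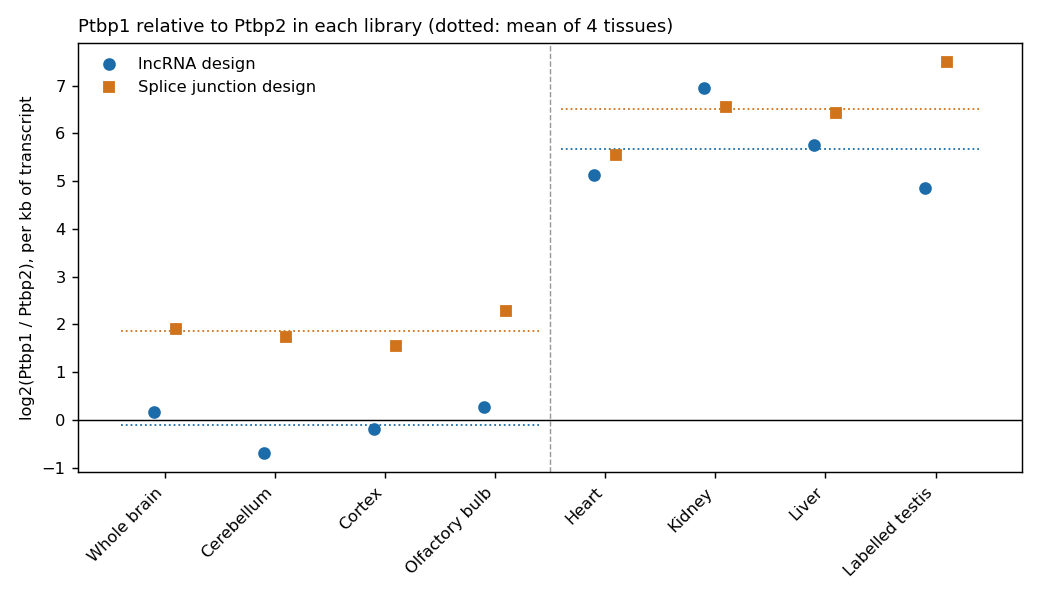
Log2 ratio of Ptbp1 to Ptbp2 per kb of transcript (vertical axis) in each library by tissue, in the lncRNA design (circles) and the splice junction design (squares); dotted lines are means of 4 tissues. Brain libraries lie between -0.68 and 2.27 and nonbrain libraries between 4.84 and 7.49.

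In brain the captured fragments of the genes were near parity in the lncRNA design, and those of Ptbp1 exceeded those of Ptbp2 in the splice junction design. The lncRNA design targeted noncoding loci. The splice junction design targeted annotated junctions, without the regions most abundant in RNA-seq of cerebellum, cortex and whole brain. The part of that choice in differences between brain and nonbrain tissues was not tested. How well each gene was captured was not tested, so neither ratio gives the relative abundance of the mRNAs. Per kb of transcript, the ratio was higher in the splice junction design in 7 of the 8 tissues, kidney being the exception. As plain fragments, heart was lower in that design too (28.8 against 36), and liver was nearly level (44.95 against 44.75). Nonbrain ratios rested on few Ptbp2 fragments. In whole brain the fragment ratio was 1.15 in the lncRNA design, with a 95% interval of 0.83 to 1.58 (exact Clopper-Pearson, counting error only). In the heart lncRNA library, 36 fragments of Ptbp1 stood against 1 of Ptbp2, a fragment ratio of 36 with an interval of 6.06 to 1461. In kidney the ratio was 99.5, from 199 and 2 fragments, with an interval of 27.2 to 827.

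Ptbp1 and Ptbp2 each have a 34 nt coding exon whose skipping shifts the reading frame, and in mammals the Ptbp1 protein is known to cause that skipping in both mRNAs. They lie at chr10:79862014-79862047 and chr3:119724612-119724645 (GENCODE M21, GRCm38) and are shown with capitals where they differ.
Ptbp1, 34 nt: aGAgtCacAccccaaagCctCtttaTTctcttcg
Ptbp2, 34 nt: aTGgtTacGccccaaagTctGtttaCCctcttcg
They were identical at 26 positions (76.5%). In Ptbp1, the inclusion share was 50.6% in whole brain, 48.1% in cerebellum, 35.5% in cortex and 41.0% in olfactory bulb, against 38.3% in heart, 24.2% in kidney, 22.7% in liver and 31.7% in the tissue labelled testis. The groups overlapped through cortex and heart, and the difference of 14.5 percentage points had p = 0.0571 (two-sided exact permutation test, unadjusted). The designs differed, with brain shares of 98.1% to 100% for lncRNA capture and 24.0% to 43.02% for splice junction capture. With no division by transcript length, those brain shares were 98.2% to 100% (lncRNA design) and 42.1% to 63.8% (splice junction design).

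In Ptbp2, the share was at or above 99.99% in whole brain, cerebellum and olfactory bulb. Cortex had 63.3%, made of 0.17% in the lncRNA design (75 fragments) and 100% in the splice junction design (130 fragments). Outside brain it was 0.20% in kidney (21 fragments), and near 100% in liver (24 fragments) and the tissue labelled testis (21 fragments). Heart had 6 fragments, under the minimum of 10. Kidney thus had the lowest share of the 7 tissues with enough fragments. The in-frame 78 nt exon of Ptbp1, known to modulate its repressor activity, was included at 93.8% to 99.7% in brain and 92.5% to 99.4% in nonbrain tissues.

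Of the 18 internal exons of the members that some transcript skipped, 11 could be tested and 0 passed after Benjamini-Hochberg adjustment over these exons (0.0%), while 4 had an unadjusted p under 0.05. These were the linked 40 nt and 43 nt exons of Rbfox1 and exons of 196 nt and 31 nt near the 5' end of Ptbp1. All 4 had the smallest p that the exact permutation test allows, 0.0286, which adjustment raised to 0.0786. With 4 of 11 exons at that smallest p none can pass, so the count of 0 does not show that inclusion was alike. The 31 nt exon had a share of 98.4 ± 1.95% in brain and 87.8 ± 2.02% in nonbrain tissues (SD, n = 4 each; exact permutation p = 0.0286, unadjusted). The 196 nt exon is a longer form of the same exon, and its value set the 1 transcript that holds it against the 1 that skips both forms, on 24.0 to 92.5 fragments in brain and 23.2 to 184 in nonbrain tissues. It left out the other transcripts with the 31 nt form, so it is no share of Ptbp1 as a whole.

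Among exons measured in brain only, a 40 nt exon of Rbfox3 (chr11:118610159-118610198) was included at 73.5% to 79.1%. Its 93 nt exon (chr11:118502842-118502934), part of the RNA recognition motif region, was included at 95.6% to 98.2%. On the minus strand this 40 nt exon lies upstream of the 93 nt exon, unlike the 40 nt exons near the 3' end of Rbfox1 and Rbfox2. The 39 nt exon of Elavl4 ranged from 37.4% in olfactory bulb and 69.96% in cortex to 90.0% in cerebellum and 100% in whole brain. In the splice junction design alone, on 22.3 fragments in olfactory bulb, the Elavl4 shares were 88.4% to 100%, so the low olfactory bulb share stood in the lncRNA design alone.

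Srrm4 (chr5:116439275-116591817, minus strand), the neural SR-related protein nSR100 that promotes microexons, rose in brain, with heart and liver above the other nonbrain tissues. Srrm4 had lncRNA design values of 638 in whole brain, 717 in cerebellum, 484 in cortex and 1128 in olfactory bulb, against 296 in heart, 3.38 in kidney, 193 in liver and 9.12 in the tissue labelled testis. Srrm4 had splice junction design values of 227, 607, 343 and 740.2 in the brain tissues, against 130 in heart, 1.34 in kidney, 47.0 in liver and 3.20 in the tissue labelled testis. Olfactory bulb was highest in both designs. The rise was 4.46 ± 1.24 on the log2 scale (SE, adjusted p = 0.0234), and it missed the threshold without any one brain tissue or without the tissue labelled testis (adjusted p = 0.0502 to 0.0655).

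Which part of Srrm4 was measured depended on the design and on the tissue. A model of 2 exons at the 3' end held 92.5% to 98.6% of the brain fragments for lncRNA capture and 0.87% to 2.83% for splice junction capture. In heart this model took 100% of 62 fragments for lncRNA capture and 2.14% of 81 for splice junction capture, where the model of 13 exons held the rest. In liver it took 100% of 75 and 86.5% of 54 fragments. The splice junction fragments of liver thus lay at the 3' end and those of heart on the full-length model. From the full-length model alone, Srrm4 rose in brain by 5.24 ± 0.78 (SE, adjusted p = 0.0012), an alternative added after the data were seen.

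Elavl3 (chr9:22015005-22052023, minus strand) and Elavl4 (chr4:110203722-110351909, minus strand) encode HuC and HuD, neuronal proteins that stabilize AU-rich mRNAs and regulate splicing, and they were nearly or wholly at 0 outside brain. Elavl3 had lncRNA design values of 4109 in whole brain, 2170 in cerebellum, 2140.2 in cortex and 2852 in olfactory bulb, against 13.5 in kidney and 0 in heart, liver and the tissue labelled testis. Elavl3 had splice junction design values of 59.2, 80.3, 52.6 and 64.5 in the brain tissues, against 0.668 in kidney, 2.75 in liver and 0 in heart and the tissue labelled testis. Elavl3 rose by 7.90 ± 0.56 on the log2(value + 1) scale (SE, adjusted p = 2.34e-05).

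Elavl4 was listed at 0 in all 4 nonbrain tissues in both designs. Elavl4 had lncRNA design values of 1325 in whole brain, 605 in cerebellum, 1001 in cortex and 239 in olfactory bulb. Elavl4 had splice junction design values of 39.9, 47.2, 46.5 and 10.5 in the same tissues. Olfactory bulb was lowest in both designs, as for Rbfox1 and Rbfox3. The rise was 7.19 ± 0.54 on the log2(value + 1) scale (SE, adjusted p = 3.28e-05), and it was 4.08 with a pseudocount of 10, since a group at 0 gives no fold.

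**Figure D5:**
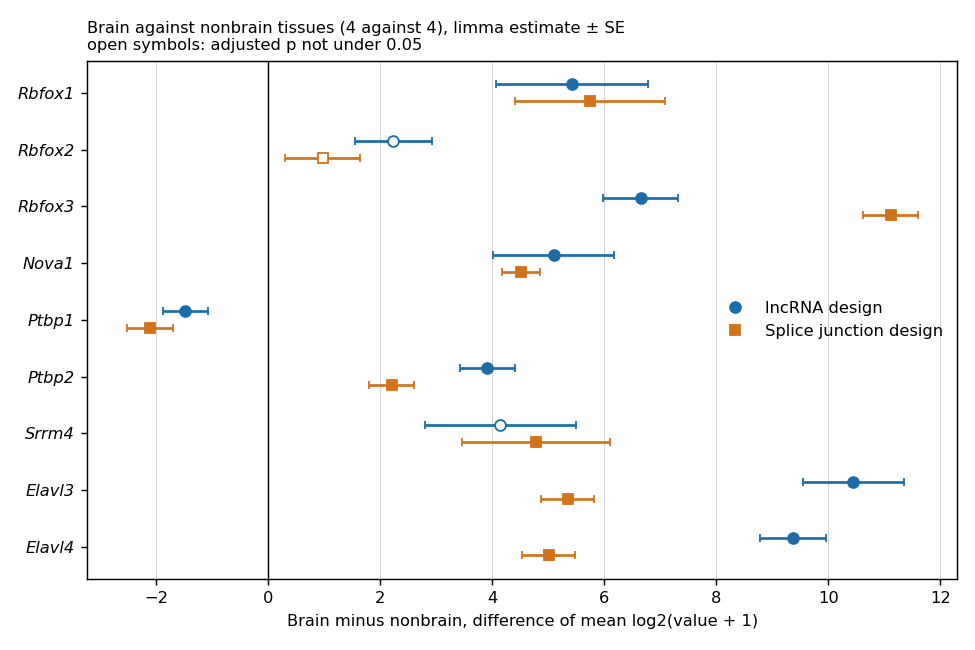
Difference of mean log2(value + 1) between 4 brain and 4 nonbrain tissues (horizontal axis, limma estimate with SE as bars) for the 9 members tested, in the lncRNA design (circles) and the splice junction design (squares); open symbols did not pass an adjusted p of 0.05. Ptbp1 alone lies below 0, at -1.48 and -2.11, and Elavl3, Elavl4 and Rbfox3 differ most between the designs.

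The brain effect differed between designs for 4 of the 9 members (limma on the within-tissue difference of designs, where 15.1% of all genes differed, 10.2% with a larger and 4.97% with a smaller effect in the lncRNA design). It was larger in the lncRNA design for Rbfox2 by 1.26 (adjusted p = 0.0295), for Elavl3 by 5.10 (adjusted p = 0.0047) and for Elavl4 by 4.36 (adjusted p = 3.79e-05). It was smaller in the lncRNA design for Rbfox3, by -4.46 (adjusted p = 8.67e-05). Nonbrain values of Elavl3, Elavl4 and Rbfox3 were at or near 0 in both designs. Their differences thus follow their brain values, which also enter the comparison of levels between designs, and are no separate result. The Rbfox2 difference did not pass with quantile normalization (adjusted p = 0.0563) or without cerebellum, cortex, heart, kidney or liver (adjusted p = 0.0524 to 0.0889). Without the tissue labelled testis, 5 members differed, while over all genes 1888 then had a larger and 909 a smaller effect in the lncRNA design. The other 5 members gave adjusted p of 0.0696 to 0.761.

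Levels also differed between the designs in the same RNA. Against the splice junction design, the lncRNA design gave higher values of Nova1 (by 5.75), Elavl3 (2.85), Elavl4 (2.18) and Srrm4 (1.03) and lower values of Rbfox1 (-2.76) and Rbfox3 (-2.80), all on the log2 scale. These are 4 higher and 2 lower of 9, where 41.0% of all genes were higher and 51.8% lower and the median of all genes was -1.08. Rbfox2, Ptbp1 and Ptbp2 did not pass the test. Relative to that median, Nova1 stood furthest above and Rbfox3 furthest below.

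Of the 64 assembled transcripts, 37 matched the annotation that stands in for GENCODE M4 and 27 did not. Of these 27, 5 matched a later GENCODE M21 transcript and 22 matched none, and 25 had at least 10 fragments in a library. The paper's assembly incorporated all of GENCODE M4, and an M4 transcript withdrawn or renumbered before M21 would count here as unmatched. Unannotated therefore means without a match in the stand-in, and whether M4 itself lacked these transcripts was not tested. Matches were uneven among the members: none of the 6 Rbfox1 transcripts matched, although the stand-in lists 2 for that gene. All 10 of Rbfox3, both of Srrm4 and the single one of Nova2 matched. Transcripts that start at least 400 nt from any M4-era start numbered 11, with 6 in Rbfox1 (from 5 sites), 3 in Nova1 and 2 in Rbfox2, and 4 of these transcripts started that far from any M21 start as well. Exons outside M4-era exons occurred in 12 transcripts and outside M21 exons in 4.

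For each gene the unannotated isoform with the most fragments was as follows. In Rbfox1 it was a 13 exon model of 1134 nt from the start at 7040937, with 13,864 fragments over the 16 libraries. In Ptbp1 it was a 13 exon model of 1439 nt without the 34 nt exon, which reached 468 fragments in the kidney splice junction library. In Elavl3 it was a model of 5024 nt with 3249 fragments, and it differed from the annotated model of 5027 nt by 3 nt of length. In Rbfox2 it was a 12 exon model of 6409 nt from 77203531 with 1074 fragments, and in Elavl4 one of 3548 nt with 514 fragments. Nova1 was led by its unspliced model, with 6304 fragments. In Ptbp2 it was a transcript of 3361 nt that GENCODE listed later, with 224 fragments. The far 5' model of Rbfox1, with 2 exons and a start 463,787 nt upstream of the first M4-era start, took 16.7% of the fragments in olfactory bulb, against 4.61% to 5.71% in the other brain tissues and 0 of 362 fragments in heart in the splice junction design. Another Elavl3 model, of 9 exons, ran on into Ccdc151, and all 5 Elavl3 models also overlap Gm49318 on the same strand.

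At the level of single transcripts, 34 of the 64 had a mean value of at least 10, and 21 of these rose and 2 fell in brain (18.2% and 6.43% of 61,523 transcripts). All 7 Rbfox3 transcripts tested rose, by 2.91 to 7.37 on the log2(value + 1) scale. Of the 5 Rbfox1 transcripts tested 4 rose, by 4.30 to 6.98, and the one from 7069835 that GENCODE lists did not pass (-0.74, adjusted p = 0.722). The 2 that fell were both of Ptbp1: the 14 exon transcript with the 34 nt exon (-1.25, adjusted p = 0.0439) and an unannotated model of 11 exons and 1541 nt (-2.75, adjusted p = 0.0108). For Ptbp2 neither transcript tested passed (adjusted p = 0.0921 and 0.844), although the gene did.

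Other splicing regulators give the setting, where 21.8% of all genes tested rose and 12.2% fell in the mean of both designs (median 0.17). Of 10 other neural regulators, 9 rose in brain and 0 fell in the mean of both designs, with a median of 5.33 on the log2 scale. Among them, Celf4 (7.60) and Celf5 (6.49) belong to the CELF family, Srrm3 (7.30) is a paralogue of Srrm4 and Khdrbs2 (6.54) encodes the STAR protein SLM1. The exception, named after its value was seen, was Khdrbs3 (0.56, adjusted p = 0.587).

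Of 15 widely expressed regulators, 1 rose (Tia1, 1.98) and 1 fell (Ptbp3, -1.69, a paralogue of Ptbp1). Their median was 0.18, beside 0.17 over all genes, of which 21.8% rose and 12.2% fell. Of 8 core spliceosome genes 0 passed in limma and 1 had an unadjusted p under 0.05 (median 0.10), and of 10 SR protein genes 1 rose (Srsf9, 1.43). Both epithelial regulators fell, Esrp1 by -5.01 and Esrp2 by -6.18. The muscle regulators Rbm20, Rbm24 and Rbm38 did not pass, with 1 of the 3 at an unadjusted p under 0.05 (median -0.21), and their summed fragments were 16,901 in the heart splice junction library, against 201 to 730 in the other nonbrain libraries of that design.

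The genes whose log2 values followed each member most closely over the 8 tissues (Pearson r, mean of designs, 14,836 protein-coding genes compared) are given as a description. For Rbfox1 they were Tex11 (0.994), Ank2 (0.994), which encodes the scaffold ankyrin-B of neurons and heart muscle, and Gpr137c (0.992). Rbfox2 was followed by the drug efflux transporter gene Abcb1a (0.982), Tmem263 (0.963) and Man2a2 (0.961), and Rbfox3 by Far2 (0.999), Serp2 (0.998) and the neuronal adhesion gene Negr1 (0.997). Nova1 was followed by Bicral (0.994), D130040H23Rik (0.994) and Letm2 (0.993). Gstt3, a glutathione transferase gene (0.997), Acp5 (0.994) and Dera (0.989) followed Ptbp1, whereas Rims3, which encodes an active zone protein of presynaptic terminals (0.996), Maneal (0.995) and Sept3 (0.995) followed Ptbp2. Zfp455 (0.983), Cep170 (0.972) and Sema6c (0.971) stood nearest to Srrm4. The NMDA receptor subunit gene Grin3a (0.998), Spock3 (0.997) and Mro (0.995) stood nearest to Elavl3, and Spock1 (1.00), Tagln3 (0.999) and Nell2 (0.999) to Elavl4. The number of genes with r above 0.9 was lowest for Srrm4 (48) and Rbfox2 (50) and reached 1508 for Elavl4. All points share the split into brain and nonbrain libraries, and the depth of their libraries.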

How the data were processed

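The authors aligned reads to GRCm38 with TopHat2, assembled and merged transcripts with Cufflinks 2.2.1 guided by GENCODE M4, and deposited 1 signal per transcript and library, the estimated fragments normalised by Cuffnorm 2.2.1 with 1 factor per library. Sums over the authors' gene models were whole multiples of a step per library (100% of sums of up to 20 steps, within 0.1 of a step), which gave fragments and depth. The deposited assembly gave other values, the exon coordinates. Fragments within a gene are divided among isoforms by an estimate, so shares of starts and exons are less certain than gene sums.

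Values were summed per GENCODE M21 gene and log2(value + 1) was tested with limma 3.58.1 (R 4.3.3, moderated variance with a trend, Benjamini-Hochberg adjustment) over 19,352 genes with a mean value of at least 10, with 4 brain and 4 nonbrain tissues. The test was checked on simulated data. No count model was used, because the deposited rows are not whole counts. GENCODE M4 was not used here: M21 transcripts with identifiers before a break stood in for it (69.3% of spliced ones recur in the assembly before the break, 7.90% after it). Exon shares are fragments per kb of transcripts that hold an exon over those that hold or skip it, for tissues with at least 10 fragments. The members and gene lists were chosen with earlier results of these data known. All 10 members are named, and of each list at most 4 genes with the largest change. For each member the 3 genes with the highest correlation are named. The spread is that between different tissues. Alternatives tried were a pseudocount of 10, no filter, quantile normalization, scaling to the library size outside spike-ins, the authors' gene models, M21 in place of the M4 stand-in, stricter fragment minimums, exon shares with no length correction, and leaving out each tissue. Promoter sequences matched 9 of the 10 members (RefSeq) and protein sequences were not used here.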

Additional observations from a re-analysis of the deposited data

Results flagged for a closer look

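Heart stood apart from the other nonbrain tissues for Rbfox1, at a value of 100.2 (lncRNA design) and 581 (splice junction design), where the other 3 reached at most 3.38 and 27.4. Kidney was the only nonbrain tissue with a value above 0 for Elavl3 in the lncRNA design (13.5, 8 fragments) and for Rbfox3 in the lncRNA design (3.38, 2 fragments). The tissue labelled testis was the only nonbrain tissue above 0 for Nova2, at 3.42 in the lncRNA design (3 fragments) and 0.533 in the splice junction design (1 fragment). These are 6 of 38 groups of 4 tissues tested for a value apart from the rest, where chance gives about 1 in 20, and a group with 3 zeros is named by any value above 0.

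The brain effect on the log2(value + 1) scale differed between the designs, lncRNA design minus splice junction design, by 1.26 for Rbfox2, -4.46 for Rbfox3, 5.10 for Elavl3 and 4.36 for Elavl4. Nonbrain values of the last 3 were at or near 0 in both designs, and their brain values differed between the designs.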

How the results depend on the processing

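Of 551 single-gene values under alternatives, 497 kept their direction and side of the threshold, 33 lost and 19 gained a call, and 2 changed sign: the Nova1 difference between designs (0.59) without liver (-0.19, adjusted p = 0.917; -0.19 to 1.47 with a tissue left out) and Ptbp1 in the lncRNA against the splice junction design with quantile normalization (0.57, adjusted p = 0.0188; -0.36 otherwise). The causes were not tested. The members called in brain against nonbrain tissues numbered 8 in the mean of both designs and 7 to 9 with a tissue left out, 7 (5 to 9) for lncRNA capture and 8 (7 to 9) for splice junction capture. Genes called in the lncRNA design numbered 4479, against 7225 with the authors' gene models and 2921 to 4915 with a tissue left out (2921 without cortex). The members whose brain effect differed between designs numbered 4, against 7 with a pseudocount of 10 and 3 to 5 with a tissue left out, and over all genes 2930, against 4656. The Ptbp1 to Ptbp2 difference was -8.94 (lncRNA design) and -7.59 (splice junction design) from M4-era transcripts alone (exact permutation p = 0.0857 each). Ptbp2 was then near 0 in some libraries. With a tissue left out, the difference was -6.06 to -5.36 and -4.96 to -4.31. Exons that passed numbered 0, against 3 with at least 50 fragments and 0 to 4 with a tissue left out (4 without kidney, which leaves 6 exons to adjust over). Transcripts with a distant start numbered 11, against 4 when set against all M21 starts. No paired analysis was possible because brain and nonbrain libraries come from different tissues, every library is labelled as replicate 1 and each tissue has 1 library per design. The comparison of designs was made within tissues, which pairs the libraries of a tissue. Depth limits what the heart lncRNA library shows, the shallowest, where Rbfox1 rested on 21 fragments and Ptbp2 on 1.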
